A study of Homo sapiens with 9 samples.

Results

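The GALNT genes encode the polypeptide N-acetylgalactosaminyltransferases, the Golgi enzymes that start mucin-type O-glycosylation. The 10 genes described here (GALNT1, GALNT2, GALNT3, GALNT5, GALNT6, GALNT7, GALNT10, GALNT11, GALNT13 and GALNT14) were picked by symbol from the 58381 gene rows of the count and FPKM tables. All 10 were found and all 10 passed the filter on low counts. They are 10 of the 20 human genes of the family; the other 10 are described more briefly. The set was built around GALNT5, whose far higher level in ETS1-expressing cells than in control cells was already known from these libraries. Differences of the 10 genes from the control are therefore given as a description, without p-values; where it is said that the edgeR fit called a gene there, the call is part of that description and supports nothing. The difference between the 2 levels of ETS1 was tested.

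RNA was sequenced from TC-32, an established Ewing sarcoma line carrying the EWSR1::FLI1 fusion, which is the background of all 3 groups. RFP cells carried the lentiviral pLOC vector with a red fluorescent protein. ETS1-Low and ETS1-High cells carried pLOC with an ETS1 cDNA and expressed the ETS transcription factor ETS1 ectopically at a lower and a higher level. Transduced cells were selected with puromycin and sorted as single cells. Each group had 3 libraries. The ETS1 cells are described as single-cell clones, but how many clones stand behind a group, and whether RFP cells were cloned, is not given in the sources used here. A difference between clones and a difference in ETS1 therefore cannot be told apart. P-values measure the spread between libraries as labelled, which may be technical.

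Total expected counts ran from 39484704 to 46654734 per library. ETS1 itself was at 1.995 ± 0.174 CPM in the RFP cells, with 10.6 ± 0.298 for ETS1-Low and 19.1 ± 0.806 for ETS1-High (SD, n = 3). CPM is the count scaled to library size, here with TMM factors. The summed level of 10 Ewing sarcoma markers was 2578 to 2686 CPM in RFP, 3863 to 3928 in ETS1-Low and 3940 to 3949 in ETS1-High, and none was at 0 in every library. Most of that sum was CCND1, which encodes cyclin D1, at 1548 ± 42.4, 2518 ± 20.3 and 2498 ± 15.1 CPM. All 10 had a mean of at least 1 CPM in RFP and 9 did in each ETS1 group, where GLI1 did not. Epithelial cells use many GALNT enzymes, and 7 epithelial markers summed to at most 1.19 CPM in any library, with 0 of 7 at a mean of 1 CPM.

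Mucin-type O-glycosylation begins when a GALNT enzyme moves N-acetylgalactosamine from UDP-GalNAc to a serine or threonine of a protein in the Golgi. Several GALNT enzymes act on bare peptides, while others prefer peptides that already carry a GalNAc. The enzymes differ in which sites they choose, so the mix present in a cell helps to set where its secreted and surface proteins are glycosylated. C1GALT1, with its chaperone C1GALT1C1, then adds galactose to form core 1, which branching enzymes and sialyltransferases extend or cap.

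GALNT5, an enzyme with an unusually long stem between its membrane anchor and its catalytic domain, was scarce in RFP and among the most abundant family transcripts in both ETS1 groups. It had 0.686, 0.6401 and 0.512 CPM in the RFP libraries, then 341, 347 and 340.2 across ETS1-Low and 294, 283 and 277 across ETS1-High. The groups did not overlap: the highest RFP library had 0.686 CPM and the lowest ETS1 library 277 CPM. These levels rest on 25 to 33 counts per library in RFP, 12909 to 15597 in ETS1-Low and 11597 to 12726 in ETS1-High. GALNT5 was 463-fold higher in ETS1-High than in RFP, a log2 fold change of 8.86 (SE 0.063), and 558-fold higher in ETS1-Low, 9.12 (SE 0.062). These SEs were derived from the F statistic of the test and are too small for so few RFP counts. With 1 RFP library left out, the values ran from 8.74 to 8.95 in ETS1-High and from 9.01 to 9.21 in ETS1-Low. On log2(FPKM + 1), a scale that understates changes of low genes, the values were 5.50 and 5.76. Among 17235 genes tested it had the 5th highest log2 fold change in ETS1-High and the 4th highest in ETS1-Low. The libraries are bulk RNA, so fewer cells with the transcript and less RNA per cell cannot be told apart, here or for the genes that follow. GALNT5 lies on the plus strand at chr2:157257705-157318491 (GRCh38, GENCODE v44), as a protein-coding gene.

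**Figure D1:**
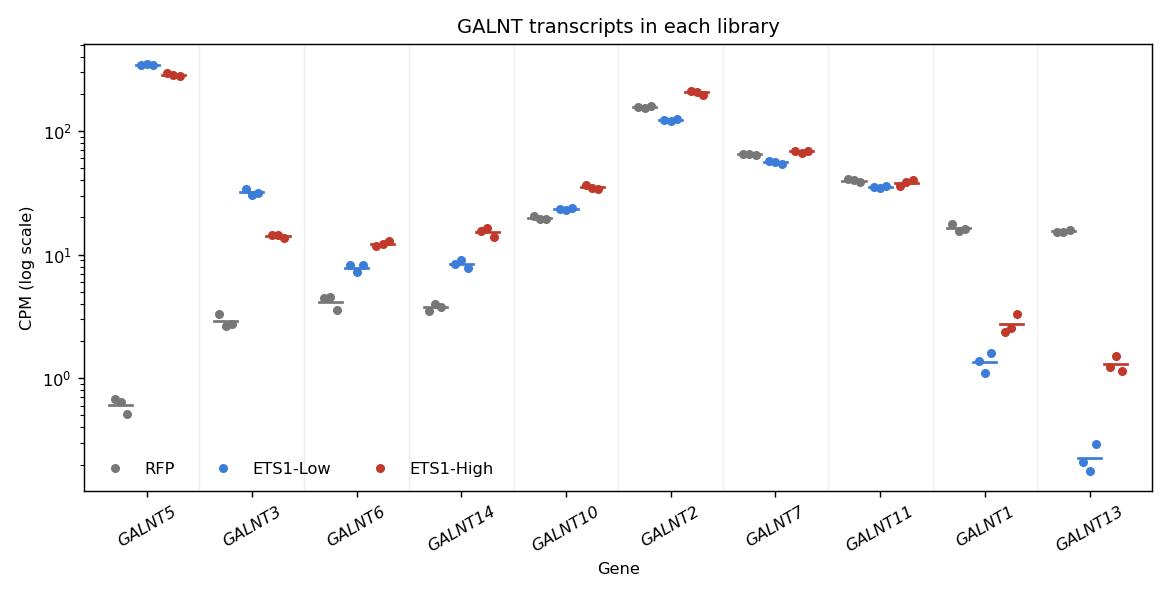
Level of each of the 10 GALNT genes in CPM (log axis) in the 9 libraries, genes side by side on 1 axis, with points for libraries and bars for group means. GALNT5 sits at 0.512 to 0.686 CPM in RFP and at 277 to 347 CPM in the ETS1 libraries, while GALNT1 and GALNT13 sit lower in every ETS1 library than in any RFP library.

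GALNT3 and GALNT6 are close relatives; GALNT3 is known for glycosylating the hormone FGF23 and so protecting it from cleavage. Both were higher in the ETS1 groups than in RFP, in opposite orders. GALNT3 had 3.33, 2.67 and 2.77 CPM in the RFP libraries, then 34.3, 30.5 and 31.4 across ETS1-Low and 14.4, 14.4 and 13.8 across ETS1-High. It was lowest in RFP, intermediate in ETS1-High and highest in ETS1-Low, with no overlap between any groups. Its log2 fold change from RFP was 3.45 (SE 0.074) in ETS1-Low and 2.28 (SE 0.08) in ETS1-High. These correspond to 11-fold and 4.85-fold. GALNT3 was higher by 2.57 and 1.5 on log2(FPKM + 1).

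GALNT6 had 4.45, 4.52 and 3.54 CPM in the RFP libraries, then 8.199, 7.23 and 8.18 across ETS1-Low and 11.7, 12.3 and 12.8 across ETS1-High. Every ETS1-High library was above every ETS1-Low library, and these were above every RFP library. Its log2 fold change from RFP was 1.56 (SE 0.086) in ETS1-High and 0.91 (SE 0.091) in ETS1-Low. The ETS1-Low value depended on the unit: on log2(FPKM + 1) it was 0.14, which was not called, and the ETS1-High value was 0.72. In FPKM, which scales for gene length, GALNT6 was at 2.09 ± 0.286 in RFP and 2.41 ± 0.462 in ETS1-Low.

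GALNT1 and GALNT13, also close relatives, were both much lower in the ETS1 groups. GALNT1 is widely expressed and accepts many peptides, while GALNT13 is best known from neural cells. GALNT13 had 15.3, 15.2 and 15.9 CPM in the RFP libraries, then 0.212, 0.178 and 0.293 across ETS1-Low and 1.24, 1.51 and 1.14 across ETS1-High. Its RFP libraries held 714 to 775 counts each, the ETS1-Low libraries 8 to 12 and the ETS1-High libraries 49 to 68. That is 67.6-fold lower in ETS1-Low, a log2 fold change of -6.08 (SE 0.146), and 11.9-fold lower in ETS1-High, -3.57 (SE 0.105). The SE of the ETS1-Low value is too small for so few counts.

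GALNT1 had 17.8, 15.5 and 16.2 CPM in the RFP libraries, then 1.38, 1.11 and 1.61 across ETS1-Low and 2.36, 2.56 and 3.29 across ETS1-High. The same order held as for GALNT13: RFP highest, ETS1-Low lowest, and no library of one group within the range of another. GALNT1 was 12.1-fold lower in ETS1-Low, with a log2 fold change of -3.60 (SE 0.111), and 6-fold lower in ETS1-High, with -2.58 (SE 0.098). On log2(FPKM + 1) the values in ETS1-Low and ETS1-High were -2.26 and -1.83 for GALNT1 and -2.24 and -1.83 for GALNT13.

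Promoters of 250 bases before to 50 after a transcription start were in the RefSeq table (GRCh38.p14) for 8 of the 10 members, with 12 starts; GALNT5 and GALNT6 had no entry. The promoters of GALNT3 and GALNT13 are shown because these genes moved furthest in opposite directions among those with an entry. Capitals mark the core ETS motif GGAA on either strand, written TTCC where it lies on the other strand. GALNT3 is on the minus strand at chr2:165794198-165794497, and the GALNT13 windows are on the plus strand at chr2:153068043-153068342 and chr2:153477651-153477950, both upstream of the GENCODE v44 start of the gene at 153871922. Which start the cells use was not tested.
GALNT3: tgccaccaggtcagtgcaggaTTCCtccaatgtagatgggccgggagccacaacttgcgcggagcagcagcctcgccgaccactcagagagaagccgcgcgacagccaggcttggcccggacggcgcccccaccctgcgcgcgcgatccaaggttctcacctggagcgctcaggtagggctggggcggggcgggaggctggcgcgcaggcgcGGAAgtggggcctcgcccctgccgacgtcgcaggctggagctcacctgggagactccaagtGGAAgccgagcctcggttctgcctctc
GALNT13, first start: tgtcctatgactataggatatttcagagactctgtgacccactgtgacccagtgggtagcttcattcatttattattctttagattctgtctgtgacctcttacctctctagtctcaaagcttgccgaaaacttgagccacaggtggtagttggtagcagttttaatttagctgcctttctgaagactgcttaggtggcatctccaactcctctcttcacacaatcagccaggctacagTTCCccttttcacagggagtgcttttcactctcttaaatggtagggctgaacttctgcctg
GALNT13, second start: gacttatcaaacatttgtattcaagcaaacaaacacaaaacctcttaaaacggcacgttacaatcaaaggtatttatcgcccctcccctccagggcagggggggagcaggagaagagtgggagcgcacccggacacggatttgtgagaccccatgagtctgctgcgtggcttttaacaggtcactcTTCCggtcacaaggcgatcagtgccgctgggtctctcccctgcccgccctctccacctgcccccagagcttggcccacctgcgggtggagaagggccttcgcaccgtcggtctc
GALNT3 held 3 GGAA matches and each GALNT13 window 1. In the second GALNT13 window that match was part of CCGGAA, a longer ETS motif, on the opposite strand. GALNT7 held 7 matches, with CCGGAA once, GALNT11 8, GALNT2 3 and GALNT10 2. The 3 GALNT1 windows held 3, 0 and 0 and the 2 GALNT14 windows 4 and 2. Of 35116 promoters of this length, 95.5% held GGAA on either strand (median 3), 17.2% CCGGAA and 3.67% the tandem GGAAGGAA (also on either strand), which none of the 12 windows held. GGAA is contained in both longer motifs, so the counts overlap. A match is only a description of these letters.

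GALNT2 and GALNT14 belong to another branch of the family. GALNT2, a widely expressed enzyme with many substrates, was the most abundant member in RFP. It had 157, 154 and 159 CPM in the RFP libraries, then 122, 121 and 126 across ETS1-Low and 212, 206 and 198 across ETS1-High. ETS1-Low was below RFP, with a log2 fold change of -0.35 (SE 0.031), and ETS1-High above it, with 0.39 (SE 0.031). GALNT14, which has been linked to glycosylation of TRAIL death receptors, was higher in both ETS1 groups. It had 3.49, 3.97 and 3.79 CPM in the RFP libraries, then 8.38, 9.12 and 7.76 across ETS1-Low and 15.4, 16.3 and 13.9 across ETS1-High. Its log2 fold change from RFP was 1.17 (SE 0.089) in ETS1-Low and 2.02 (SE 0.083) in ETS1-High, and no groups overlapped. Its ETS1-Low value was 0.77 on log2(FPKM + 1).

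GALNT7 and GALNT10 prefer peptides that already carry GalNAc. GALNT7 had 65.7, 65.1 and 63.8 CPM in the RFP libraries, then 56.9, 55.99 and 54.2 across ETS1-Low and 69.5, 66.9 and 69.2 across ETS1-High. ETS1-Low was below RFP, with -0.22 (SE 0.034) on the log2 scale and -0.38 on log2(FPKM + 1). ETS1-High was close to RFP at 0.08 (SE 0.034), and the value was -0.04 on FPKM. It fell short of the threshold without RFP replicate 3, ETS1-High replicate 1 or ETS1-High replicate 3 (0.07 in each). It also did so with upper-quartile scaling (0.02), DESeq2 or its scaling factors (0.07 each) and at least 10 counts in every library (0.06).

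GALNT10 had 20.6, 19.4 and 19.3 CPM in the RFP libraries, then 23.2, 23.1 and 23.7 across ETS1-Low and 36.8, 34.8 and 34.3 across ETS1-High. It was highest in every ETS1-High library, with a log2 fold change from RFP of 0.83 (SE 0.046), and 0.24 (SE 0.049) in ETS1-Low. On log2(FPKM + 1) these values were 0.45 and 0.02, and the second was not called.

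GALNT11, which is known for glycosylating linkers between the ligand-binding repeats of LDL receptor family proteins, differed least from RFP on counts. It had 40.6, 40.3 and 38.5 CPM in the RFP libraries, then 35.5, 34.8 and 35.99 across ETS1-Low and 36.2, 38.5 and 39.8 across ETS1-High. ETS1-High overlapped RFP, with a log2 fold change of -0.06 (SE 0.04), while ETS1-Low lay below every RFP library at -0.17 (SE 0.041). GALNT11 was the 1 member not called between ETS1-High and RFP. It was called lower there with upper-quartile scaling, at -0.12, and on log2(FPKM + 1), at -0.19. On that FPKM scale the ETS1-Low value was -0.37, and GALNT7 in ETS1-High and GALNT6 and GALNT10 in ETS1-Low were closer to RFP than GALNT11.

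Among the 10 genes, GALNT5 was the member farthest from RFP, but not the only one far from it. Between ETS1-High and RFP 9 of 10 members were called at an adjusted p under 0.05, beside 74.2% of all genes tested: 7 higher (37% of all genes) and 2 lower (37.2%). Between ETS1-Low and RFP all 10 were called, beside 74.1% of all genes: 5 higher (37.9%) and 5 lower (36.2%). The libraries of the groups did not overlap for 9 members in ETS1-High, beside 75.5% of all genes, and for 10 in ETS1-Low, beside 76%. Since the choice of the set used these comparisons, nothing is read from the counts.

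A change of at least 2-fold was reached by 6 members in ETS1-High, beside 21% of all genes: GALNT3, GALNT5, GALNT6 and GALNT14 were higher (4 members, beside 9.64% of all genes), GALNT1 and GALNT13 lower (2, beside 11.4%). In ETS1-Low it was reached by 5, beside 20.6%: GALNT3, GALNT5 and GALNT14 were higher (3, beside 8.47%), GALNT1 and GALNT13 lower (2, beside 12.2%). The median size of the log2 fold change, without sign, was 1.79 over the members in ETS1-High and 1.04 in ETS1-Low, beside 0.40 and 0.41 over all genes. The signed median over the members was 0.61 in ETS1-High and 0.04 in ETS1-Low, and without GALNT5 it was 0.39 and -0.17, beside -0.01 and 0.01 over all genes. After GALNT5, the member with the greatest distance from RFP was GALNT13 on counts in both groups, in the opposite direction. On log2(FPKM + 1) it was GALNT3 in ETS1-Low, at 2.57, and GALNT1 and GALNT13 tied in ETS1-High, at -1.83. Both ETS1 groups were set against the same RFP libraries, so the 2 sets of values are not independent.

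**Figure D2:**
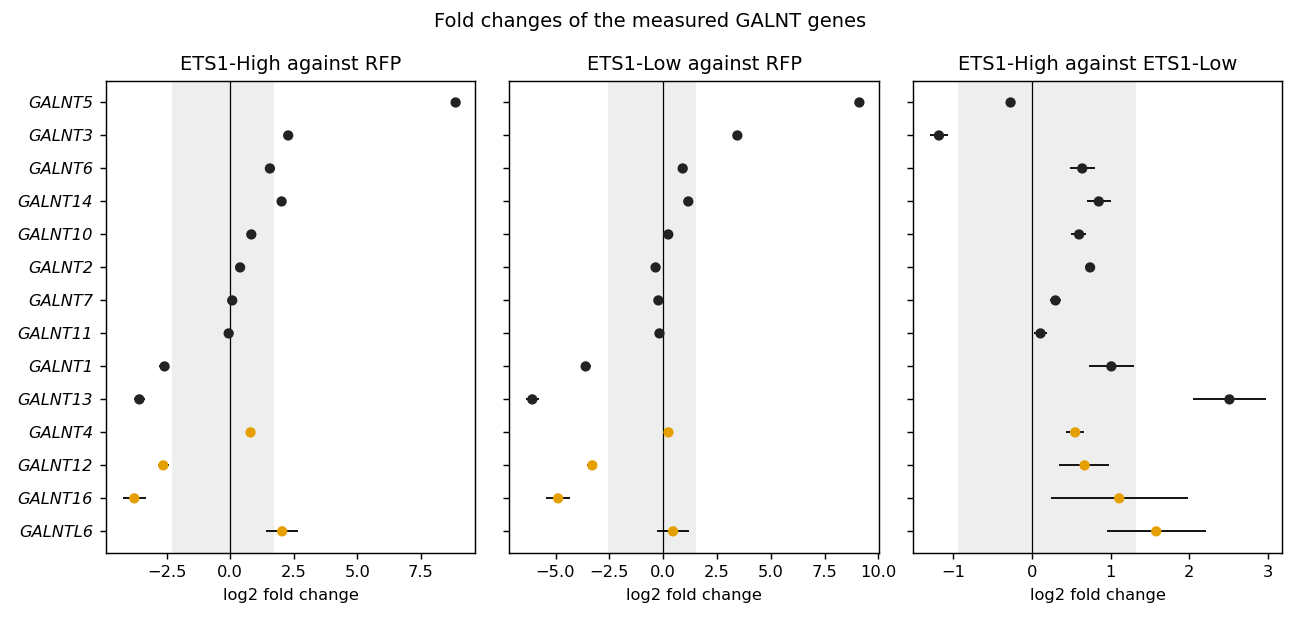
Log2 fold change of family genes in 3 comparisons (points, with 95% intervals as bars; the 10 members and, in orange, the other tested family genes), with the 5th to 95th percentile of all tested genes as a grey band; the x axes differ between panels. GALNT5 lies near 9 against RFP and at -0.27 between the ETS1 groups, where GALNT13 at 2.51 and GALNT3 at -1.18 lie at the ends of the members. Bars can be too short for genes with few counts in a group.

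ETS1-High was then tested against ETS1-Low, a contrast the choice of the set did not use. Of the 10 members 8 were higher in ETS1-High and 2, GALNT3 and GALNT5, were lower, all 10 at an adjusted p under 0.05 (edgeR quasi-likelihood test, Benjamini-Hochberg over all genes), beside 59.2% of all genes (29.9% higher, 29.3% lower). The libraries of the 2 groups did not overlap for any of the 10, beside 63.2% of all genes. A change of at least 2-fold was reached by 3 of 10, beside 9.74% of all genes: GALNT1 and GALNT13 were higher (2, beside 6.05%) and GALNT3 lower (1, beside 3.69%). The median log2 fold change of the members was 0.62, beside -0.00 over all genes.

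GALNT5 fell slightly from ETS1-Low to ETS1-High, with a log2 fold change of -0.27 (SE 0.029) and a 95% interval from -0.33 to -0.21 (edgeR adjusted p = 3.28e-11). GALNT3 fell 2.26-fold, a log2 fold change of -1.18 (SE 0.06) with an edgeR adjusted p of 4.78e-23. GALNT13 rose 5.69-fold, with 2.51 (SE 0.229) and an edgeR adjusted p of 8.8e-14, and GALNT1 rose 2.02-fold, with 1.01 (SE 0.144) and 5.66e-08. Both of these nevertheless stayed below RFP. On log2(FPKM + 1) the difference of GALNT13 was smaller than on counts, at 0.41, and that of GALNT1 was 0.44.

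The remaining members rose by less than 2-fold. GALNT14 rose by 0.85 (SE 0.076), GALNT2 by 0.74 (SE 0.031), GALNT6 by 0.64 (SE 0.08), GALNT10 by 0.60 (SE 0.046) and GALNT7 by 0.30 (SE 0.035) on the log2 scale, with edgeR adjusted p from 2.09e-26 (GALNT2) to 1.23e-09 (GALNT6). GALNT11 rose by 0.11 (SE 0.042), with an edgeR adjusted p of 0.0217. That call was lost without ETS1-Low replicate 2 (0.10), ETS1-High replicate 2 (0.11) or ETS1-High replicate 3 (0.08), and the value on log2(FPKM + 1) was 0.18.

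The 10 family genes outside the set also differed in both directions. Of these, 4 passed the filter on low counts; GALNT8, GALNT9, GALNT15, GALNT17 (listed under its older symbol WBSCR17), GALNT18 and GALNTL5 did not, and their highest group mean was 0.24 FPKM (GALNT8 in ETS1-Low). GALNT12 fell in both ETS1 groups, with log2 fold changes of -2.63 (SE 0.109) in ETS1-High and -3.29 (SE 0.12) in ETS1-Low (edgeR adjusted p = 3.02e-27 and 1.12e-29). It had 9.91, 10.8 and 9.83 CPM in the RFP libraries, then 1.16, 1.001 and 0.952 across ETS1-Low and 1.599, 1.82 and 1.5 across ETS1-High, so the ETS1 libraries lay well below RFP. The GALNT12 values were -1.62 and -2.01 on log2(FPKM + 1). GALNT16, of the same branch as GALNT2 and GALNT14, also fell, to log2 values against RFP of -3.77 (SE 0.232) in ETS1-High and -4.88 (SE 0.272) in ETS1-Low (edgeR adjusted p = 2.53e-20 and 4.15e-22), from 130 to 182 counts per library in RFP to 10 to 12 in ETS1-High and 3 to 6 in ETS1-Low.

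GALNTL6 had 8 to 15 counts per library in RFP, 12 to 14 in ETS1-Low and 36 to 45 in ETS1-High. It rose in ETS1-High by 2.04 (SE 0.317) on the log2 scale (edgeR adjusted p = 1.1e-07). Its value in ETS1-Low was 0.46 (SE 0.378) with an edgeR adjusted p of 0.269, and ETS1-High exceeded ETS1-Low by 1.58 (SE 0.309) (edgeR adjusted p = 1.48e-05). GALNT4, a relative of GALNT12, rose by 0.80 (SE 0.054) in ETS1-High and 0.25 (SE 0.056) in ETS1-Low (edgeR adjusted p = 1.26e-18 and 9.7e-05). GALNT4 is uncertain because it overlaps POC1B and a read-through gene, POC1B-GALNT4, and its count was not whole in 8 libraries; on log2(FPKM + 1) the ETS1-Low difference was 0.09 and was not called.

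Between the ETS1 groups, GALNT4 was higher in ETS1-High by 0.55 (SE 0.054), GALNT12 by 0.67 (SE 0.157) and GALNT16 by 1.11 (SE 0.434) on the log2 scale (edgeR adjusted p = 1.1e-12, 0.000268 and 0.0221). All 4 tested genes outside the set were thus called higher in ETS1-High, beside 29.9% of all genes. The difference of GALNT12 was 0.39 on log2(FPKM + 1). The GALNT16 call was lost with DESeq2 (1.15) and without ETS1-Low replicate 1 (0.94), ETS1-Low replicate 2 (1.10) or ETS1-High replicate 3 (1.05).

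Levels were compared between genes on the deposited FPKM, which are scaled to gene length. In RFP the order began with GALNT2 at 38.96 ± 0.493, GALNT7 at 20.8 ± 0.376, GALNT11 at 19.2 ± 0.4203 and GALNT1 at 5.69 ± 0.0503 FPKM (SD, n = 3), none overlapping its neighbour. GALNT12, GALNT10 and GALNT13 followed at 4.87 ± 0.124, 4.71 ± 0.673 and 4.12 ± 0.1002 FPKM, with neighbours that overlapped. GALNT14 and GALNT6 also overlapped, at 2.14 ± 0.108 and 2.09 ± 0.286 FPKM, and GALNT3 overlapped GALNT16 at 1.13 ± 0.17 FPKM. GALNT5 came 14th of the 20 genes by its mean, in a range shared with GALNT8 and GALNTL6, so its rank is not resolved, at 0.107 ± 0.0153 FPKM.

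In ETS1-Low GALNT5 was first at 58.9 ± 0.606 FPKM, ahead of GALNT2 at 27.8 ± 0.695, GALNT7 at 15.8 ± 0.421, GALNT11 at 14.6 ± 0.435 and GALNT3 at 11.6 ± 0.931 FPKM. GALNT10 and GALNT14 overlapped at 4.81 ± 0.7505 and 4.38 ± 0.651 FPKM, while GALNT1 and GALNT13 had dropped to 0.393 ± 0.0306 and 0.0833 ± 0.0208 FPKM. In ETS1-High GALNT5 at 49.02 ± 1.58 and GALNT2 at 47.5 ± 1.61 FPKM overlapped across libraries. Within each library GALNT5 was the higher of these 2, by a small margin (50.74 and 49.17, 47.62 and 47.26, 48.7 and 45.97 FPKM). GALNT7, GALNT11, GALNT14 and GALNT10 followed at 20.3 ± 0.8905, 16.8 ± 1.21, 7.77 ± 0.526 and 6.76 ± 0.432 FPKM. GALNT3 at 5.03 ± 0.396 FPKM overlapped GALNT4, and GALNT6 came next at 4.08 ± 0.194 FPKM. GALNT1 and GALNT13 were again low, at 0.89 ± 0.151 and 0.443 ± 0.103 FPKM.

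The share of GALNT5 in the summed FPKM of all 20 family genes was 0.111, 0.1002 and 0.0834% in the RFP libraries, 40.2, 41.1 and 40.3% in ETS1-Low and 30.02, 29.2 and 29.7% in ETS1-High. It thus made up a very small part of the family's transcripts in every RFP library. It was the largest part in every ETS1-Low library. In every ETS1-High library it was also the largest, by a small margin over GALNT2 at 29.1, 29.0 and 28.0%. The family total was 108.6 ± 1.07 FPKM in RFP, 145.3 ± 0.643 in ETS1-Low and 165.4 ± 3.17 in ETS1-High, which is 1.34 and 1.52 times RFP. Without GALNT5 it was 108.5 ± 1.06, 86.4 ± 0.897 and 116.4 ± 1.67 FPKM. Leaving out GALNT5 therefore turned a higher total in ETS1-Low into a lower one, 0.797 times RFP, and left ETS1-High at 1.07 times RFP. All of these ratios use the deposited FPKM, without TMM factors. On log2(FPKM + 1) the median of all genes moved by -0.133 in ETS1-Low and -0.106 in ETS1-High against RFP, relative to the count fit.

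Within the rest of the family, GALNT2 held 35.9 ± 0.675% of the FPKM without GALNT5 in RFP, 32.2 ± 0.825% in ETS1-Low and 40.8 ± 0.847% in ETS1-High. GALNT3 held 1.04 ± 0.165%, 13.4 ± 1.07% and 4.33 ± 0.369%. GALNT1 went from 5.24 ± 0.0921% to 0.455 ± 0.0324% and 0.766 ± 0.140%. GALNT13 went from 3.80 ± 0.0892% to 0.0965 ± 0.0245% and 0.381 ± 0.0873%. GALNT7 held 19.2 ± 0.390%, 18.2 ± 0.425% and 17.4 ± 0.648%.

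**Figure D3:**
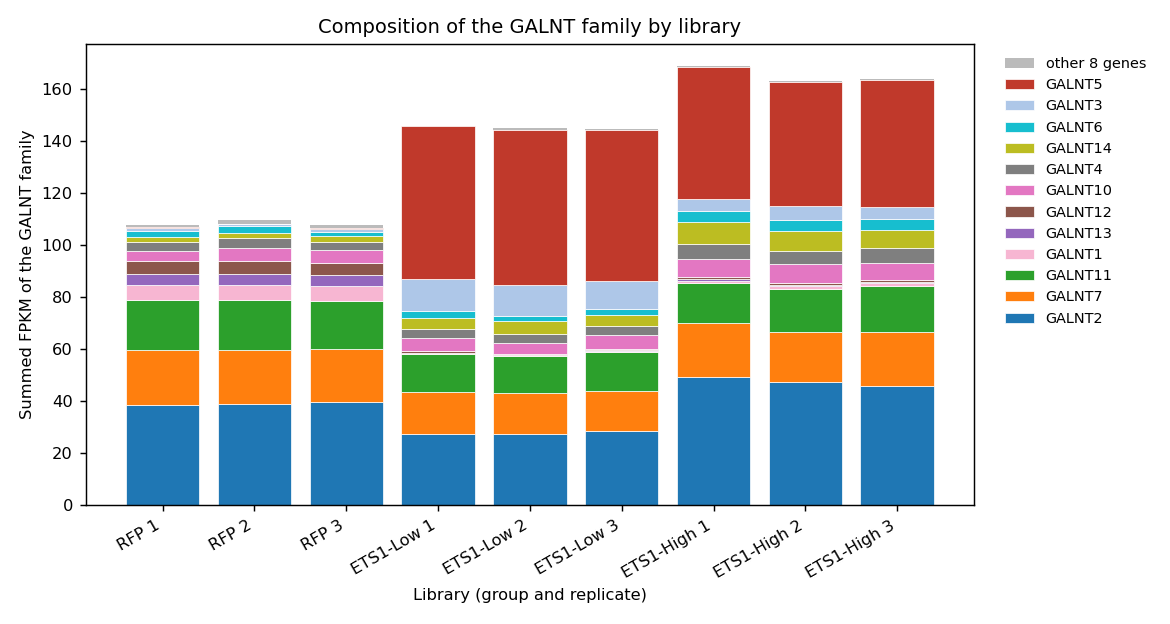
Stacked summed FPKM of the 20 family genes in each of the 9 libraries, by gene, from 0. GALNT5 (dark red) is invisible in RFP and takes 40.5 ± 0.459% of the sum in ETS1-Low and 29.6 ± 0.423% in ETS1-High.

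GALNT3, GALNT5 and GALNT13 all lie on the long arm of chromosome 2. GALNT13 is at chr2:153871922-154453979 (plus strand) and GALNT3 at chr2:165747588-165794659 (minus strand; GRCh38, GENCODE v44), so both fall within 10 Mb of GALNT5. In that window 56 other genes were tested, GALNT3 and GALNT13 among them, and their median log2 fold change was 1.03 in ETS1-High and 0.59 in ETS1-Low, beside -0.01 and 0.01 over all genes. Of the 56, 40 were called higher and 11 lower in ETS1-High, and 38 higher and 12 lower in ETS1-Low, beside 37% higher and 37.2% lower of all genes in ETS1-High and 37.9% and 36.2% in ETS1-Low. GALNT5 at 8.86 and 9.12 stood far above that regional level, and GALNT13 at -3.57 and -6.08 far below it. GALNT13 was not the lowest gene of the window, which was RPRM in ETS1-High (-6.01) and KIF5C in ETS1-Low (-9.09). The part of the regional shift in the result for GALNT5 was not tested.

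The 6 nearest tested genes were mixed. On the left, GPD2, NR4A2 and AC093375.1 were higher in ETS1-High by 1.57, 1.63 and 1.17 and in ETS1-Low by 1.45, 0.98 and 0.62 on the log2 scale. On the right, ERMN and CCDC148 were lower (-1.52 and -2.30 in ETS1-High, -1.22 and -1.32 in ETS1-Low), while ACVR1, a BMP receptor, was higher (1.27 and 0.43). ERMN starts 0.061 Mb from the start of GALNT5. All 6 were called by the edgeR test in both comparisons with RFP. The highest value in the window beside GALNT5 was that of TNFAIP6, at 8.70 in ETS1-High and 8.96 in ETS1-Low. Within 2 Mb of GALNT5, the median of the neighbours was 1.22 in ETS1-High and 0.80 in ETS1-Low. For the other members, this median in ETS1-High ran from -0.32 (GALNT10) to 1.65 (GALNT3), with 0.88 for GALNT13 and 0.13 for GALNT1. It was 1.53 around GALNT7 on chromosome 4, although GALNT7 itself was at 0.08. The other members lie at chr18:35581117-35711834 (GALNT1), chr1:230057990-230282122 (GALNT2), chr12:51351247-51392867 (GALNT6), chr4:173168811-173323967 (GALNT7), chr5:154190730-154420984 (GALNT10), chr7:152025674-152122340 (GALNT11) and chr2:30910467-31155202 (GALNT14).

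**Figure D4:**
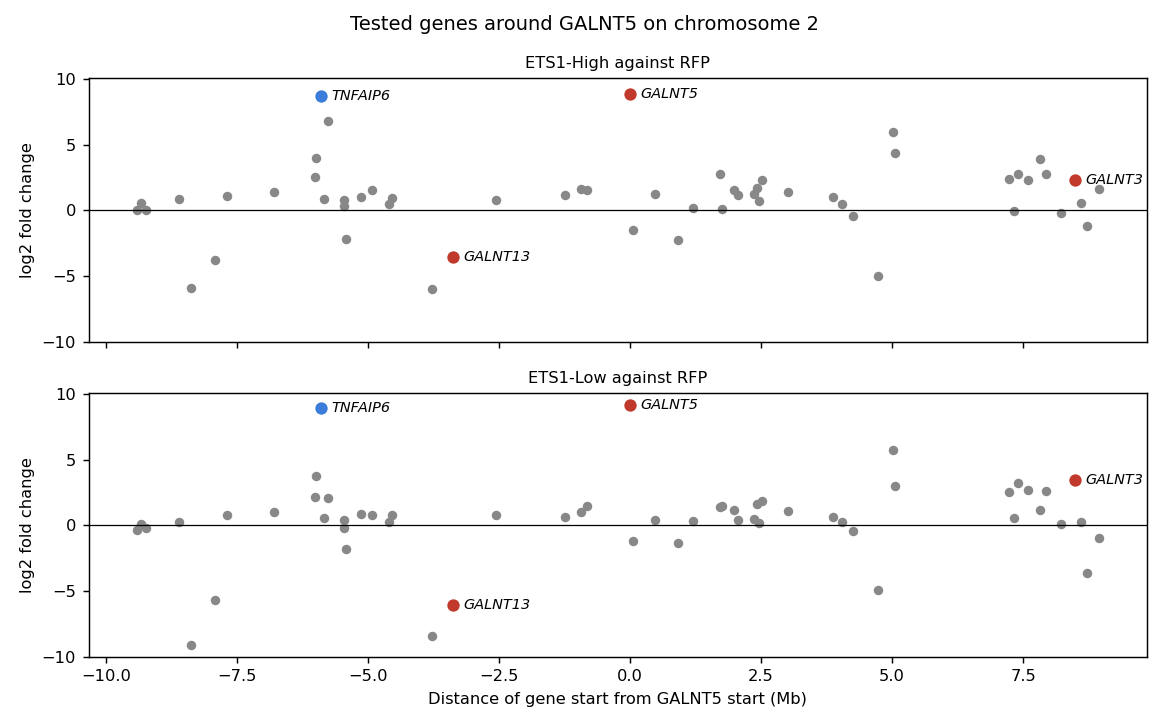
Log2 fold change against RFP of tested genes by distance of their start from that of GALNT5 (Mb), in ETS1-High and ETS1-Low. Most points lie above 0 (median 1.03 and 0.59 over 56 genes), with GALNT5 and TNFAIP6 near 9 and GALNT13 at -3.57 and -6.08.

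The genes whose profiles were most like that of GALNT5 over the 9 libraries were TNFAIP6, SRGN, ALDH1A1, CRABP1 and PKIA. Likeness was the Euclidean distance between log2(CPM + 0.5) profiles, each centred on its mean, among 9827 genes with a mean of at least 10 CPM. The distances were 2.91, 3.05, 3.41, 4.46 and 4.6 in that order. TNFAIP6 went from 0.083 CPM in RFP to 42.9 in ETS1-Low and 35.8 in ETS1-High, and SRGN, the proteoglycan serglycin, from 0.147 to 44.7 and 37.0 CPM. ALDH1A1, a retinaldehyde dehydrogenase, went from 45.6 to 2356 and 2638 CPM, and CRABP1, a retinoic acid binding protein, from 7.28 to 216 and 315 CPM. PKIA, an inhibitor of protein kinase A, went from 0.41 to 22.3 and 37.1 CPM. TNFAIP6 is also the gene of the 10 Mb window named above. Of the tested family genes, GALNT1, GALNT6, GALNT12, GALNT13, GALNT14, GALNT16 and GALNTL6 had a mean under 10 CPM and were not ranked.

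Genes around GalNAc transfer were followed in 4 lists of 52 genes, of which 38 were tested. The lists hold later steps, sugar nucleotide supply, enzymes that start other kinds of O-glycosylation, and carrier proteins. The pooled counts are therefore not those of 1 pathway. By the edgeR test 27 of the 38 were called in ETS1-High against RFP (74.2% of all genes) and 29 in ETS1-Low (74.1%). Of the enzymes that build and cap core structures 9 were tested: 2 rose and 2 fell in ETS1-High (beside 37% and 37.2% of all genes), 2 rose and 4 fell in ETS1-Low (beside 37.9% and 36.2%). C1GALT1, the core 1 synthase, was at 21.3 ± 0.884 CPM (SD, n = 3) in RFP, with 21.6 ± 1.19 for ETS1-Low and 19.8 ± 1.06 for ETS1-High. It differed from RFP by a log2 value of -0.11 (SE 0.054) in ETS1-High, with an interval from -0.22 to -0.00, and 0.02 (SE 0.054) in ETS1-Low, with -0.09 to 0.13. Neither was called (edgeR adjusted p = 0.0613 and 0.73), but the ETS1-High value was called without RFP replicate 1 (-0.13) or ETS1-High replicate 3 (-0.14) and with upper-quartile scaling (-0.17). Its chaperone C1GALT1C1 rose by 0.18 (SE 0.043) in ETS1-High and fell to -0.15 (SE 0.045) in ETS1-Low (edgeR adjusted p = 0.00027 and 0.00272). The rise was not called on log2(FPKM + 1), at 0.07, nor the fall without ETS1-Low replicate 3, at -0.10.

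GCNT4, a core 2 branching enzyme, rose by 1.77 (SE 0.1) in ETS1-High and 2.05 (SE 0.098) in ETS1-Low (edgeR adjusted p = 1.17e-21 and 1.44e-24), from 2.396 ± 0.219 to 8.17 ± 0.259 and 9.91 ± 1.16 CPM. Chosen after their values were seen, 2 further enzymes of this list are named. GCNT1, also a core 2 enzyme, had 79 to 89 counts per RFP library, 5 to 6 per ETS1-Low and 5 to 9 per ETS1-High library. ST6GALNAC3, a sialyltransferase acting on O-linked GalNAc, had 269 to 316 counts per RFP library, 0 in every ETS1-Low library and 0 to 3 in ETS1-High. Taking 3 counts per library as the limit for a 0, it was at least 83.4-fold lower in ETS1-Low.

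Of the 10 genes that supply UDP-GalNAc and the other sugar nucleotides, 5 rose and 2 fell in ETS1-High (beside 37% and 37.2% of all genes), and 8 rose and 2 fell in ETS1-Low (beside 37.9% and 36.2%). GFPT1, the entry enzyme of the hexosamine pathway, rose by 0.45 (SE 0.032) in ETS1-High and 0.57 (SE 0.032) in ETS1-Low (edgeR adjusted p = 5.91e-18 and 5.57e-22). GFPT2, its paralog, fell to log2 values against RFP of -3.50 (SE 0.112) in ETS1-High and -3.74 (SE 0.116) in ETS1-Low (edgeR adjusted p = 1.28e-31 and 4.45e-32), from 14.9 ± 1.17 CPM in RFP to 1.304 ± 0.282 in ETS1-High and 1.12 ± 0.171 in ETS1-Low. PGM3, a later enzyme of the same pathway, rose by 0.98 (SE 0.032) in ETS1-High and 0.47 (SE 0.033) in ETS1-Low (edgeR adjusted p = 9.52e-32 and 3.03e-18).

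Among 9 enzymes that start other kinds of O-glycosylation, 3 rose and 5 fell in ETS1-High (beside 37% and 37.2% of all genes), and 1 rose and 5 fell in ETS1-Low (beside 37.9% and 36.2%). XYLT1, which starts glycosaminoglycan chains with xylose, had 38 to 57 counts per library in RFP, 0 to 4 in ETS1-Low and 401 to 409 in ETS1-High. ETS1-High exceeded RFP by 3.24 (SE 0.138) on the log2 scale and ETS1-Low by 7.77 (SE 0.253), though the ETS1-Low counts are few (edgeR adjusted p = 1.11e-25 and 5.63e-30). ETS1-Low fell below RFP, with -4.53 (SE 0.399) and an edgeR adjusted p of 2.01e-14. The SEs of 0.253 and 0.399 were derived from the F statistic and are too small for so few ETS1-Low counts. XYLT2 rose by 0.32 (SE 0.04) in ETS1-High and 0.59 (SE 0.04) in ETS1-Low (edgeR adjusted p = 1e-09 and 1.47e-18). OGT, the nuclear and cytoplasmic O-GlcNAc transferase, fell to log2 values against RFP of -0.51 (SE 0.035) in ETS1-High and -0.51 (SE 0.035) in ETS1-Low (edgeR adjusted p = 2.63e-14 and 3.93e-14).

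Of 19 mucins and other proteins with mucin-like stretches 10 were tested: 4 rose and 4 fell in ETS1-High (beside 37% and 37.2% of all genes), and 4, CD44 among them, rose and 3 fell in ETS1-Low (beside 37.9% and 36.2%). CD44, the hyaluronan receptor, rose to 16.99 ± 1.805 CPM in ETS1-High from 2.07 ± 0.234 in RFP, by 3.04 (SE 0.096) on the log2 scale (edgeR adjusted p = 2.15e-32). In ETS1-Low CD44 was at 2.5 ± 0.104 CPM and called at 0.28. That call was lost without RFP replicate 1 (0.21), RFP replicate 3 (0.25), ETS1-Low replicate 2 (0.26) or ETS1-Low replicate 3 (0.26). It was also lost with DESeq2 (0.26), DESeq2 scaling factors (0.25) and upper-quartile scaling (0.23). Both other filters, a fit of only the groups compared and every FPKM setting lost it too. MUC1, a membrane mucin, rose by 1.38 (SE 0.115) in ETS1-High and 0.94 (SE 0.12) in ETS1-Low (edgeR adjusted p = 2.19e-15 and 1.15e-09). TMEM123 fell in ETS1-High, with a log2 fold change of -0.40 (SE 0.03), and rose in ETS1-Low, with 0.17 (SE 0.029) (edgeR adjusted p = 2.75e-17 and 8.71e-07). On log2(FPKM + 1) the rise of TMEM123 was 0.02 and was not called.

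**Figure D5:**
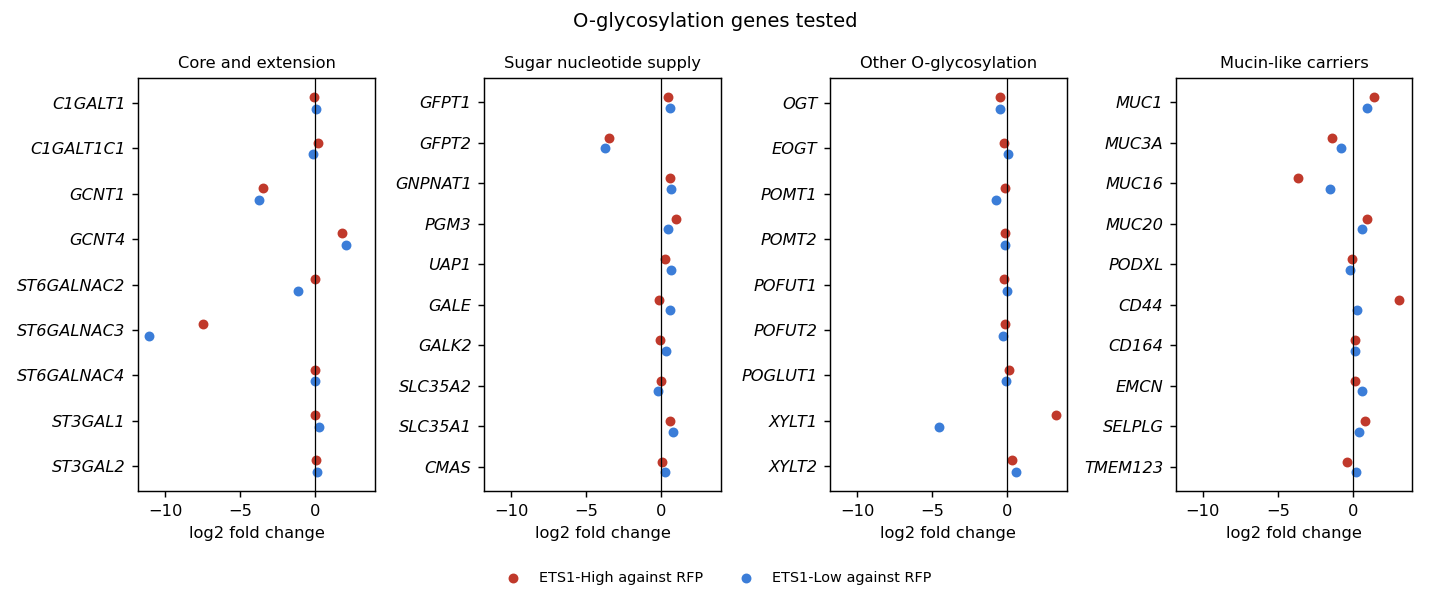
Log2 fold change against RFP of the 38 tested genes of the 4 lists, in ETS1-High and ETS1-Low, with the same x range in every panel. Most genes lie near 0; XYLT1 lies at 3.24 in ETS1-High and -4.53 in ETS1-Low, and the ETS1-Low point of ST6GALNAC3 depends on the prior count because all its libraries there were at 0.

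Between ETS1-High and ETS1-Low 26 of the 38 listed genes were called, beside 59.2% of all genes. Of the core and capping enzymes 2 rose and 3 fell, of the supply genes 2 rose and 6 fell, of the other initiating enzymes 4 rose and 3 fell, and of the carriers 3 rose and 3 fell, beside 29.9% of all genes that rose and 29.3% that fell. CD44 was higher in ETS1-High by 2.76 (SE 0.095), PGM3 by 0.51 (SE 0.031), MUC1 by 0.44 (SE 0.107) and C1GALT1C1 by 0.33 (SE 0.045) on the log2 scale (edgeR adjusted p = 4.75e-30, 9.92e-20, 0.000379 and 1.13e-08). GCNT4 was lower at -0.28 (SE 0.084, edgeR adjusted p = 0.00347). That call was lost without ETS1-Low replicate 2 (-0.19) and under every FPKM setting (-0.15, -0.23 and -0.15). MUC1 was at 0.29 on log2(FPKM + 1), which was not called. GFPT2 and OGT were not called, with intervals from -0.10 to 0.59 and from -0.08 to 0.06 (edgeR adjusted p = 0.214 and 0.867). GFPT2 was called higher, at 0.40, without ETS1-High replicate 1.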

How the data were processed

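Per the file headers, the authors deposited RSEM expected counts per gene, in which a read that fits several genes is split among them, and RSEM FPKM, which also correct for gene length and sequencing depth. The submitters' processing notes list cutadapt 4.4, STAR 2.7.3, featureCounts, Subread 2.0.3, limma 3.38.3 and builds GRCh38 and hg38, with no role or order. Whether counting used strand is not given in the sources used here. In each library 9.00% to 10.3% of all gene rows, rows at 0 included, held an expected count that was not whole. All counts were rounded. Of 58381 genes, 26816 were at 0 in every library, and 0 columns were left without a library. Groups were taken from the sample titles, with L and H in column names taken to mean Low and High.

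Genes were filtered with filterByExpr by group, scaled with TMM and fitted with edgeR's robust quasi-likelihood model (edgeR 4.0.16, R 4.3.3) in a single fit of all 9 libraries with group as the only factor. P-values were adjusted by Benjamini-Hochberg over 17235 genes; calls were made below 0.05. The fit was tested on simulated data in which few genes changed, so that test does not cover data where most genes were called, as here. DESeq2 1.42.0, limma 3.58.1 on log2(FPKM + 1), other scaling factors and filters, and each library left out in turn were alternatives. Replicate libraries differed by 2.66 to 5.19 times sampling noise (chi-square per gene, 50 counts or more in a pair), so none was treated as a library deposited more than once; this does not show that they are biological replicates. SEs of fold changes were derived from the edgeR fit. Each is the size of the log2 fold change, fitted without a prior count, divided by the square root of the F statistic. Intervals of fold changes extend from the reported value by that SE times a t quantile. Where a group has few counts, these SEs and intervals can be too small. The limit of 3 counts for a 0 covers counting error only, since PCR reads carry no molecular identifiers.

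The members and lists were chosen with earlier results of these data known. Named beyond the members were the other family genes, up to 3 genes per pathway list ranked by p for ETS1-High against RFP (mean of at least 100 counts), the 5 genes most like GALNT5 and the 3 nearest tested genes on each side of it. Positions are from GENCODE v44 on GRCh38, matched by gene identifier; the build of the deposited tables is named only in the processing notes.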

Additional observations from a re-analysis of the deposited data

Results flagged for a closer look

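The results here were picked because the 2 ETS1 groups, set against the same RFP libraries, were called different in the edgeR fit. For the members, the log2 fold changes of ETS1-High against ETS1-Low were 1.01 for GALNT1, 0.74 for GALNT2, -1.18 for GALNT3, -0.27 for GALNT5, 0.64 for GALNT6, 0.30 for GALNT7, 0.60 for GALNT10, 0.11 for GALNT11, 2.51 for GALNT13 and 0.85 for GALNT14. GALNT2 and GALNT7 were below RFP in ETS1-Low and above it in ETS1-High, although for GALNT7 the second difference was not called under several alternatives. The family genes outside the set differed by 0.55 for GALNT4, 0.67 for GALNT12, 1.11 for GALNT16 and 1.58 for GALNTL6.

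Among the pathway genes, XYLT1 differed by 7.77 and CD44 by 2.76. MUC1 differed by 0.44, PGM3 by 0.51 and C1GALT1C1 by 0.33. GCNT4 differed by -0.28, which was not called under the FPKM settings or without ETS1-Low replicate 2. C1GALT1 differed by -0.13 (lost without ETS1-Low replicate 1 or 3 or ETS1-High replicate 2, at -0.10, -0.11 and -0.09). GFPT1 differed by -0.12 (not called under the FPKM settings, at -0.09), XYLT2 by -0.27 and TMEM123 by -0.58. With 59.2% of all genes called in this comparison, a difference between the ETS1 groups was common.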

How the results depend on the processing

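Over 567 recomputed log2 fold changes of the members, 544 kept their direction and their side of the threshold, 16 fell short of it, 4 newly passed it and 3 reversed. The 3 reversals were GALNT7 in ETS1-High against RFP, at -0.04 under each FPKM setting. C1GALT1 between ETS1-High and ETS1-Low also reversed, to 0.07, 0.08 and 0.07 under the FPKM settings. FPKM moved the median of all genes by -0.106 for ETS1-High and by -0.133 for ETS1-Low, both against RFP and on the log2 scale; the cause was not tested. Members called ranged from 7 to 9 in ETS1-High against RFP, 8 to 10 in ETS1-Low against RFP and 9 to 10 between the ETS1 groups. With at least 10 counts in every library GALNT13, at 8 to 12 counts in ETS1-Low, was not tested. The number called under that filter therefore covers the other members only. GALNT5 kept its direction throughout, with the smallest values, 5.50 in ETS1-High and 5.76 in ETS1-Low, under a pseudocount of 1 on FPKM.

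Calls among family genes outside the members were 2 with at least 10 counts in every library and 2 under both filtered FPKM settings in ETS1-High against RFP, where fewer of them were tested. In ETS1-Low against RFP they were 5 without a filter, where 9 were tested, and 1 under both filtered FPKM settings. Between the ETS1 groups they were 2 under the same 3 settings as in ETS1-High. The pathway lists had 16, 16 and 17 calls between the ETS1 groups under the FPKM settings. The share of GALNT5 in the family was 0.172%, 52.6% and 40.1% by counts in RFP, ETS1-Low and ETS1-High, and 41.8% and 30.9% of the members' FPKM in the ETS1 groups. Without GALNT5, the family sum was 98.8, 81.9 and 109.5 FPKM over the members only and 158.0, 122.7 and 172.7 on a TPM scale.

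Groups share replicate numbers, but same-numbered libraries deviated together little (correlations from -0.085 to 0.137 over 12823 genes, others from -0.141 to 0.098) and 2 of 9 libraries correlated best with their own number. A fit with the number as a block called 9, 10 and 10 members and 12701, 12729 and 10122 genes in the 3 comparisons. Depth limits GALNT5 in RFP, GALNT13 and GALNT16 in ETS1-Low and XYLT1 in ETS1-Low, each at few counts. For these genes, SEs and intervals of fold changes that use those groups can be too small.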
